A study of Saccharomyces cerevisiae with 44 samples.

Results

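Deletion of FKH1 was examined in budding yeast cells whose Dbf4 protein carries a mutated zinc finger. The 4 BrdU-IP (IP) libraries of fkh1Δ dbf4-Zn*1 and fkh1Δ dbf4-Zn*2 cells were set together against the 4 IP libraries of dbf4-Zn*1 and dbf4-Zn*2 cells, with the 8 libraries of unselected DNA (Total) from the same strains and replicates as control. These 16 libraries are among 44 samples of the series, of which 40 are IP or Total libraries of 10 strains. The assay, QBU, feeds cells BrdU, a base analogue that enters DNA only while it is copied, and pulls the labelled DNA down with an antibody before sequencing. Cells were arrested in G1 phase with α-factor and released into 200 mM hydroxyurea (HU) for 60 min at 23 °C, which slows forks and leaves mostly early-firing origins labelled.

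All strains are of the W303 background and lack BAR1. The fkh1Δ dbf4-Zn*1 strain carries fkh1Δ::URA3MX with the changes C661A and C664A in Dbf4, and the fkh1Δ dbf4-Zn*2 strain carries fkh1Δ::URA3MX with H680C. The dbf4-Zn*1 and dbf4-Zn*2 strains carry the same dbf4 alleles with FKH1 intact. All 4 strains have BrdU-Inc, the cassette that lets yeast take up BrdU, at leu2. Each genotype is represented by 1 strain, so the deletion cannot be told apart from other differences that segregated in the crosses that made these strains. Every strain has 2 replicates, and the sources used here do not state whether these were separate cultures, so that p-values measure the spread between these libraries. The fkh1Δ and WT cells with intact DBF4 served as the setting against which the effect was compared, and their BrdU-Inc cassettes are at ura3 in fkh1Δ and at leu2 in WT.

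Dbf4 is the regulatory subunit of the Dbf4-dependent kinase (DDK), which phosphorylates the loaded Mcm2-7 helicase and thereby starts replication. DDK is scarce relative to the number of licensed origins, and origins that recruit it fire early. Fkh1 and Fkh2 are forkhead transcription factors that bind near many early origins and bring Dbf4 to them. The kinetochore protein Ctf19 brings Dbf4 to origins next to centromeres (CENs). The zinc finger lies in the C-terminal part of Dbf4.

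The IP files gave 163 origins, defined as local peaks of the averaged IP profiles of the 10 strains. Each origin is named here by chromosome and by the position of its peak in kb, so that XI-56 lies near 56 kb of chromosome XI. The level of an origin in a library is the mean count per 50-bp bin in a 500-bp window on the peak divided by the mean of all bins of that library. Origins fell into 4 lists that do not overlap. The 32 CEN-proximal origins are the nearest on each side of the 16 CENs. The 46 Fkh1-dependent origins had a log2 fold change of -1 or below in fkh1Δ against WT, at an adjusted p under 0.05 (edgeR). The 40 Fkh2-backed origins passed that limit only in fkh1Δ fkh2-dsm, a strain in which FKH2 also lacks its origin function, and 45 origins remained. The name Fkh2-backed marks this limit only. The median log2 fold change of that list in fkh1Δ against WT was -0.72, beside -0.61 over all origins. The fkh1Δ fkh2-dsm IP libraries, with 469607 and 281531 counts, were the shallowest of all IP libraries. None of the 8 compared IP libraries entered the fold changes that defined the lists, although they shared the peak calling and the estimate of spread with those that did.

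Counts within FKH1 were low but not absent where the gene should be missing, and every result below carries that caution. The central part of the gene stood at 15.5% and 6.44% of the genome-wide mean in the fkh1Δ dbf4-Zn*1 IP replicates and at 8.12% and 12.6% in the fkh1Δ dbf4-Zn*2 IP replicates, against 50.4% to 57.7% in the dbf4-Zn* IP libraries. In Total DNA the range was 3.23% to 5.71% in fkh1Δ dbf4-Zn* libraries and 79.0% to 83.2% in dbf4-Zn* libraries. Set against dbf4-Zn* cells of the same allele, the fkh1Δ dbf4-Zn* libraries held 12.7% to 30.7% of the FKH1 level in IP and 4.04% to 7.06% in Total. The fkh1Δ libraries with intact DBF4 were at 0.446% or less, and BAR1, deleted in every strain, was at 0 in all 40 libraries. FKH2, which came through the same cross, was present at 76.6% to 83.0% in the fkh1Δ dbf4-Zn* Total libraries and at 80.9% to 88.0% in the dbf4-Zn* Total libraries. The part of these FKH1 counts in the results was not tested. Leaving out the IP library with the highest FKH1 level, the first replicate of fkh1Δ dbf4-Zn*1, gave 56 origins lower and 62 higher. The other 3 fkh1Δ dbf4-Zn* IP libraries hold such counts too.

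**Figure D1:**
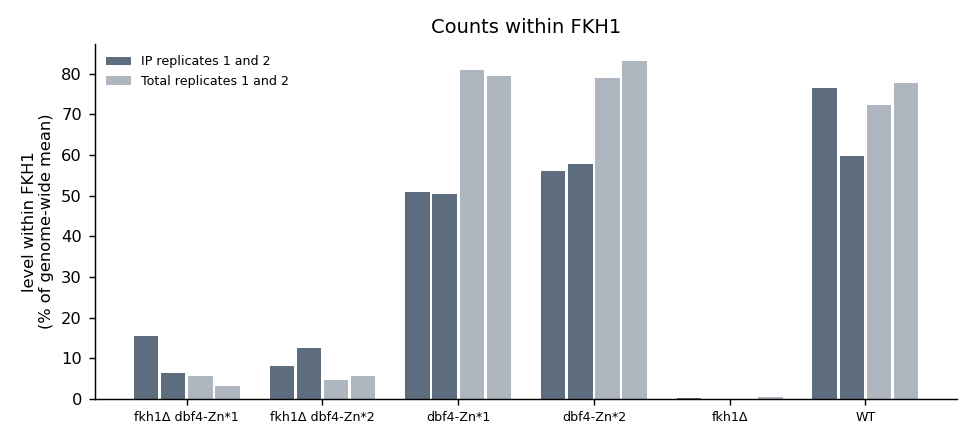
Level within FKH1, as the mean count per bin of its central 22 bins in percent of the genome-wide mean of each library (vertical axis), for 6 strains on the horizontal axis with 2 IP and 2 Total replicates each. The fkh1Δ dbf4-Zn* bars lie between 3.23% and 15.5%, the dbf4-Zn* bars between 50.4% and 83.2%, and the fkh1Δ bars at 0.446% or less.

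BrdU signal shifted between origins when FKH1 was deleted in dbf4-Zn* cells. Of the 163 origins, 124 (76.1%) differed between the groups, 61 (37.4%) being lower and 63 (38.7%) higher in fkh1Δ dbf4-Zn* than in dbf4-Zn* cells, at an adjusted p under 0.05 (edgeR quasi-likelihood test, Benjamini-Hochberg adjustment over all origins), and the median log2 fold change was 0.02. These shares are the background against which each list is read. The 4 IP values of the groups did not overlap at 120 origins (73.6%), with fkh1Δ dbf4-Zn* below dbf4-Zn* at 62 (38.0%) and above it at 58 (35.6%). The split between lower and higher depends on the scaling. With TMM factors, which shift the median of all origins to 0.45, 40 origins were lower and 94 higher. With the sum of the matching Total library as library size, 0 origins passed the test in edgeR and 10 had an unadjusted p under 0.05, while the median was 0.37. Changes are therefore read relative to the median of all origins.

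**Figure D2:**
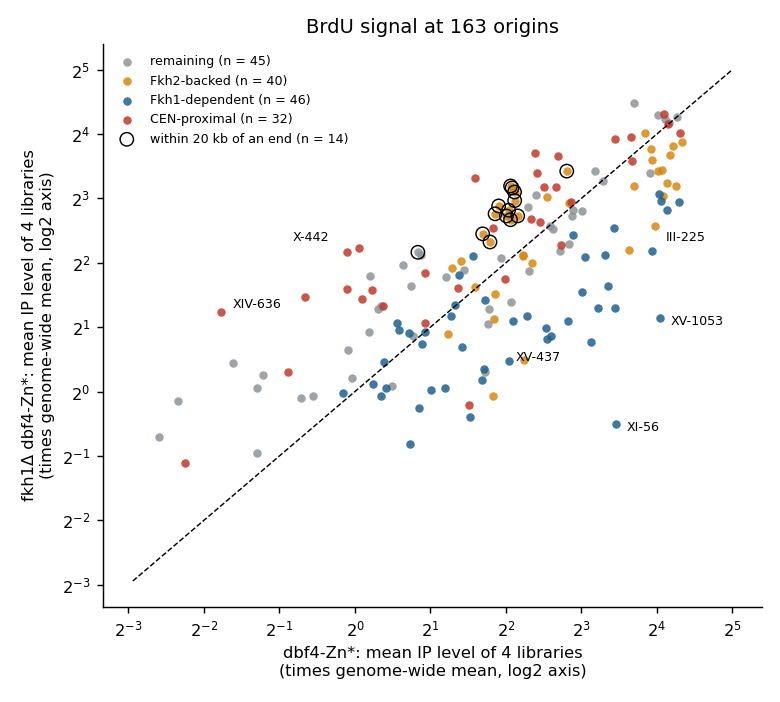
Mean IP level of each of the 163 origins in fkh1Δ dbf4-Zn* (vertical axis) and dbf4-Zn* (horizontal axis), 4 libraries each, in multiples of the genome-wide mean on log2 axes, coloured by list. Most Fkh1-dependent origins lie below the dashed line of equality, most CEN-proximal origins lie above it, and the 14 ringed origins near chromosome ends all lie above it.

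Fkh1-dependent origins lost signal when FKH1 was deleted in dbf4-Zn* cells. Of 46, 32 were lower and 3 higher. Their median log2 fold change was -1.09 beside 0.02 over all origins. Under TMM scaling 29 were lower and 9 higher, with a median of -0.66 beside 0.45. The median level of the list was 2.03 ± 0.103 times the genome-wide mean in fkh1Δ dbf4-Zn* libraries and 3.74 ± 0.128 in dbf4-Zn* libraries (SD, n = 4 each). With intact DBF4 it was 3.32 ± 0.0155 in fkh1Δ and 11.4 ± 0.366 in WT (SD, n = 2 each), values that the choice of the list fixes. All 4 fkh1Δ dbf4-Zn* libraries lay below both fkh1Δ libraries at 30 of the 46 origins and above both at 2. Over all 163 origins they lay below at 110 and above at 25, so the share below is not particular to this list.

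The largest fall was at XI-56, between EAP1, which encodes a regulator of translation initiation, and TOR2, which encodes a growth-controlling kinase (bases 55601 to 56100 of chromosome XI). Its level was 0.657, 0.563, 0.700 and 0.911 times the mean in the fkh1Δ dbf4-Zn* libraries, against 11.3, 11.6, 11.0 and 10.1 in the dbf4-Zn* libraries. This 15.8-fold difference (log2 fold change -3.98 ± 0.15 SE, adjusted p = 4.87e-21 by edgeR) left the origin below the genome-wide mean in every fkh1Δ dbf4-Zn* library. The same origin had levels of 1.31 and 1.32 in fkh1Δ and of 18.6 and 19.5 in WT.

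XV-1053, the peak nearest to ARS1529.5 on chromosome XV, lies between RDR1, which encodes a transcriptional repressor of drug resistance genes, and FRE3, which encodes a siderophore reductase (bases 1053101 to 1053600). It stood at 2.31, 2.20, 2.03 and 2.30 in fkh1Δ dbf4-Zn* libraries and at 16.3, 15.8, 16.2 and 17.4 in dbf4-Zn* libraries. The log2 fold change was -2.89 ± 0.14 (adjusted p = 6.29e-18, edgeR). In WT its levels were 16.8 and 20.0, near those in dbf4-Zn* cells. Each level is relative to the mean of its own library, so near levels do not show equal firing. The median level of all origins was 11.1 in WT and 4.15 in dbf4-Zn* libraries. XV-437, the peak nearest to ARS1513.5, lies next to ASE1, which encodes a spindle midzone protein. Its levels were 1.53, 1.48, 1.95 and 1.82 in fkh1Δ dbf4-Zn* libraries and 8.97, 10.3, 7.64 and 8.12 in dbf4-Zn* libraries (log2 fold change -2.37 ± 0.14, adjusted p = 7.14e-16 by edgeR).

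The other falls among the 10 largest lay between -2.15 at XIII-32 and -1.73 at XIII-898. They were XIII-32, XV-167, VII-204, XVI-438, II-209, X-540 and XIII-898, with adjusted p of 6.33e-11 or less (edgeR). Of the 10, 8 were Fkh1-dependent and the others, XVI-438 and II-209, Fkh2-backed. At the peak nearest to ARS1509, XV-114, the level was 2.78 to 3.04 in fkh1Δ dbf4-Zn* libraries and 7.59 to 8.43 in dbf4-Zn* libraries (log2 fold change -1.45 ± 0.15, adjusted p = 1.77e-10 by edgeR). At XV-278, nearest to ARS1511, it was 8.82 to 9.22 in fkh1Δ dbf4-Zn* libraries and 18.0 to 21.1 in dbf4-Zn* libraries (log2 fold change -1.07 ± 0.10, adjusted p = 6.33e-11 by edgeR).

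The test was not passed at 11 Fkh1-dependent origins. Their mean dbf4-Zn* levels were low, at 0.895 to 2.51, against a median of 7.21 (1.66 to 19.6) for the 32 that fell. The 3 that rose were II-623, VIII-134 and XI-517, with log2 fold changes of 0.44, 0.54 and 0.50. Their dbf4-Zn* levels were 1.47 to 2.96. Among all origins with dbf4-Zn* levels under 2, 28 of 44 were higher and 3 lower. At levels of 10 and over, 5 of 36 were higher and 24 lower. The dbf4-Zn* level also enters the fold change, and its part in the list results was not tested.

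**Figure D3:**
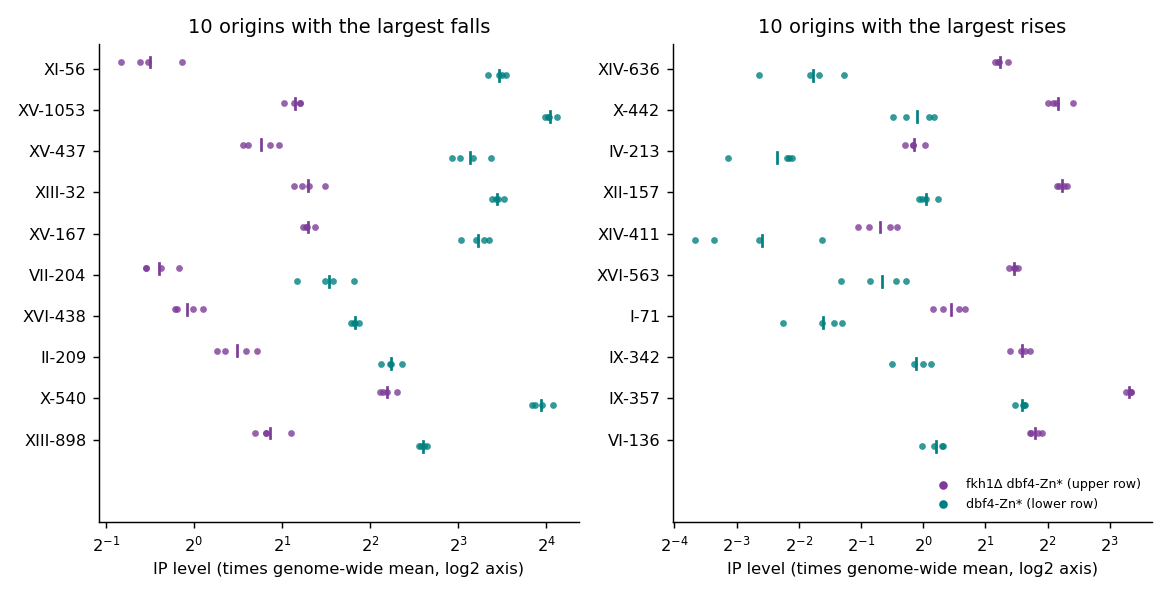
IP levels in single libraries, in multiples of the genome-wide mean on a log2 axis, at the 10 origins with the largest falls (left) and the 10 with the largest rises (right). Each point is 1 library and each vertical tick the mean of 4, with fkh1Δ dbf4-Zn* above dbf4-Zn* in each pair of rows. The groups do not overlap at any of the 20 origins, which the rule for naming them required.

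CEN-proximal origins moved the other way. Of 32, 22 were higher and 3 lower in fkh1Δ dbf4-Zn* than in dbf4-Zn* cells (median log2 fold change 0.69). Under TMM scaling 28 were higher and 1 lower, with a median of 1.12 beside 0.45 over all origins. The median level of the list was 5.42 ± 0.228 in fkh1Δ dbf4-Zn* libraries and 3.75 ± 0.260 in dbf4-Zn* libraries (SD, n = 4 each). It was 14.6 ± 0.0276 in fkh1Δ and 15.9 ± 1.52 in WT (SD, n = 2 each). The fkh1Δ dbf4-Zn* levels thus lay between those of dbf4-Zn* and those with intact DBF4. At 28 of the 32 origins all 4 fkh1Δ dbf4-Zn* libraries lay below both fkh1Δ libraries, and at 1 above both. Over all 163 origins these counts were 110 and 25.

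XIV-636, in the window of SWM2 near RPC34, which encodes a subunit of RNA polymerase III, rose most (bases 635701 to 636200 of chromosome XIV, 6.86 kb from the centromere). Its level was 2.57, 2.24, 2.32 and 2.30 in fkh1Δ dbf4-Zn* libraries, against 0.285, 0.416, 0.313 and 0.161 in dbf4-Zn* libraries. The log2 fold change was 2.97 ± 0.19 (adjusted p = 1.4e-14, edgeR). In WT the same window held 8.42 and 11.3 times the mean. A window that was below the genome-wide mean in dbf4-Zn* cells was thus above it in all 4 fkh1Δ dbf4-Zn* libraries, at a lower level than in WT. Whether it forms a peak of its own in these libraries was not tested.

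The origins on either side of the centromere of chromosome X responded in opposite directions. X-442, next to SAG1, which encodes the α-agglutinin of mating, stood at 4.40, 4.04, 5.32 and 4.26 in fkh1Δ dbf4-Zn* libraries and at 0.712, 1.12, 0.824 and 1.06 in dbf4-Zn* libraries (log2 fold change 2.32 ± 0.21, adjusted p = 2.19e-11 by edgeR). X-417, between RPC17 and NOP9, was among the strongest origins in both groups, with 16.5, 16.7, 16.0 and 15.5 in fkh1Δ dbf4-Zn* libraries and 19.3, 21.4, 17.6 and 20.8 in dbf4-Zn* libraries. Its log2 fold change was -0.29 ± 0.09 (adjusted p = 0.00589, edgeR), which turns to 0.15 under TMM scaling and is then a call in neither direction.

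Of the 10 largest rises, 6 were CEN-proximal. Besides XIV-636 and X-442 these were XII-157 at 2.20, XVI-563 at 2.12, IX-342 at 1.74 and IX-357 at 1.73 on the log2 scale. The other 4 were I-71, IV-213, VI-136 and XIV-411. Of these, VI-136 lies 12.8 kb from a centromere behind a nearer origin, and I-71, IV-213 and XIV-411 had dbf4-Zn* levels of 0.406 or less in every library. Both flanking origins were higher at 7 of the 16 CENs, 1 of the pair at 8, and neither at the centromere of chromosome VI. The CEN-proximal origins that fell were VIII-91 at -1.72, VII-485 at -0.46 and X-417.

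The rise was most frequent closest to the centromere. Within 10 kb, 14 of 15 origins were higher and 0 lower (median log2 fold change 0.97). From 10 to 25 kb, 11 of 22 were higher and 5 lower (median 0.26), and beyond 25 kb 38 of 126 were higher and 56 lower (median -0.14). With TMM factors 15 of the 15, 16 of the 22 and 63 of the 126 were higher and 0, 2 and 38 lower, with medians of 1.39, 0.68 and 0.29, so that the direction beyond 25 kb depends on the scaling. Of the 26 CEN-proximal origins whose signal was lower in ctf19Δ than in WT by the same limit, 21 were higher and 1 lower in fkh1Δ dbf4-Zn*. The 6 CEN-proximal origins outside that limit gave 1 higher and 2 lower. The 18 origins below that limit in ctf19Δ that are not CEN-proximal gave 8 higher and 5 lower, with a median of 0.01.

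**Figure D4:**
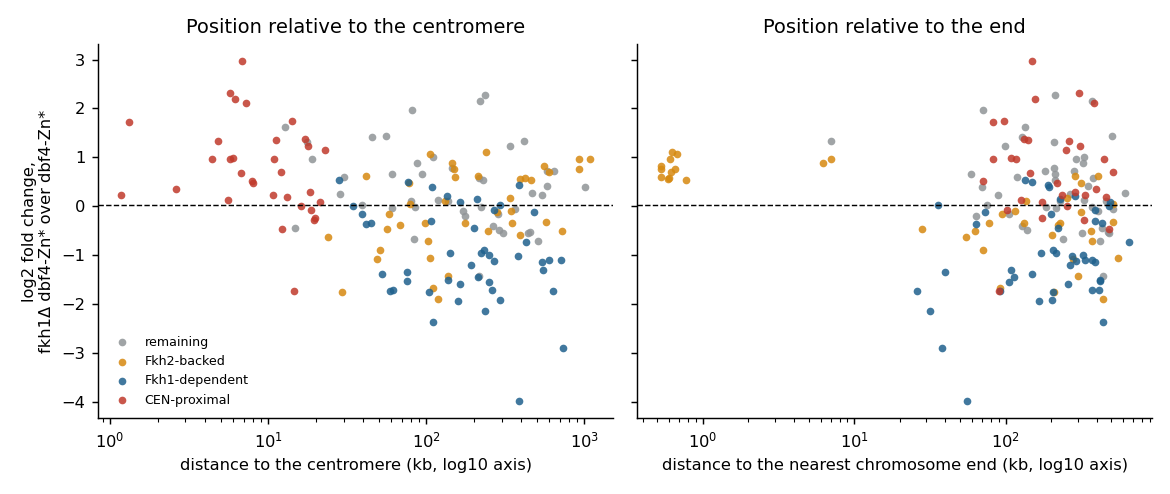
Log2 fold change of IP counts, fkh1Δ dbf4-Zn* over dbf4-Zn*, at 163 origins (vertical axis) against the distance to the centromere (left) and to the nearest chromosome end (right), in kb on log10 axes, with colours for the lists and a dashed line at the median of all origins, 0.02. The origins within 10 kb of a centromere and those within 20 kb of an end lie above 0.

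Origins near chromosome ends gained signal without exception. All 14 origins within 20 kb of an end were higher, with log2 fold changes from 0.53 to 1.34 and a median of 0.79, and the 4 values of each group did not overlap at 12 of them. The 149 other origins had a median of -0.08, with 49 higher and 61 lower. Under TMM scaling and under DESeq2 all 14 were higher as well, while TMM turned the 149 others to 80 higher and 40 lower (median 0.35). Their median level was 6.97 ± 1.17 in fkh1Δ dbf4-Zn* libraries and 4.07 ± 0.585 in dbf4-Zn* libraries (SD, n = 4 each), beside 3.95 ± 0.395 in fkh1Δ and 6.38 ± 0.0613 in WT (SD, n = 2 each). At 13 of the 14 all 4 fkh1Δ dbf4-Zn* libraries exceeded both fkh1Δ libraries, beside 25 of all 163 origins.

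The peaks of 11 of these origins are within 1 kb of the end and those of V-570, XII-6 and XII-1071 are 6.17 to 7.05 kb away. The largest rise was at V-570, with 4.76, 4.07, 4.37 and 4.70 in fkh1Δ dbf4-Zn* libraries and 1.55, 1.91, 1.69 and 1.98 in dbf4-Zn* libraries (log2 fold change 1.34 ± 0.15, adjusted p = 8.37e-10 by edgeR). Windows of 6 of the 14 overlap YRF1 genes, which encode helicases of the repeated Y' element of yeast telomeres. Near-identical repeats there can share reads, and how reads with several placements were treated is not given in the sources used here, so these origins may not be 14 separate measurements. In Total DNA 8 of the 14 were higher and 0 lower, and the level was 1.28 to 1.99 in fkh1Δ dbf4-Zn* and 1.00 to 1.69 in dbf4-Zn* cells. What these Total levels contribute to the rise was not tested.

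Fkh2-backed origins split along the same line. Of 40, 17 were lower and 16 higher, with a median of -0.11 that turns positive under TMM (0.32) and DESeq2 (0.04). TMM scaling called 9 of the 40 lower and 22 higher. The median level of all 40 was 7.15 ± 0.942 in fkh1Δ dbf4-Zn* libraries and 4.74 ± 0.281 in dbf4-Zn* libraries (SD, n = 4 each). Of these 40, 13 are end origins, all of which rose, and the 27 others held all 17 that fell and 3 that rose, with a median of -0.39. Under TMM scaling these 27 split evenly, with 9 lower and 9 higher and a median of 0.04. Among the 45 remaining origins, 22 were higher and 9 lower, with a median of 0.28, and under TMM scaling 35 were higher and 1 lower, with a median of 0.70.

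**Figure D5:**
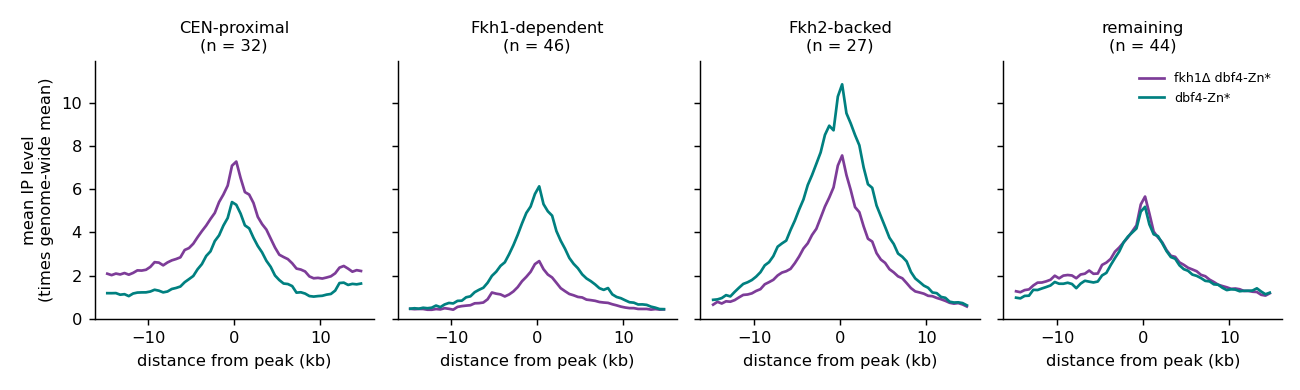
Mean IP level (vertical axis, multiples of the genome-wide mean) against the distance from the peak in kb, averaged over the origins of each list with a full 15 kb on both sides and over the 4 libraries of fkh1Δ dbf4-Zn* or of dbf4-Zn*. At the peak the CEN-proximal curve is higher and the Fkh1-dependent and Fkh2-backed curves are lower in fkh1Δ dbf4-Zn*, whereas the curves of the remaining origins nearly coincide there. The Fkh2-backed curve covers 27 of the 40 origins and leaves out the 13 near chromosome ends, all of which rose.

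The averaged profiles show the same shifts along the flanking DNA. Around CEN-proximal origins the mean level in fkh1Δ dbf4-Zn* was 7.18 within 0.5 kb of the peak, 3.25 at 5 kb and 2.10 at 10 kb, against 5.33, 1.90 and 1.15 in dbf4-Zn*. Around Fkh1-dependent origins it was 2.60, 1.09 and 0.491 in fkh1Δ dbf4-Zn*, against 5.95, 2.14 and 0.812 in dbf4-Zn*.

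The order of origins within each library changed accordingly. Dividing the CEN-proximal median level by the Fkh1-dependent one gives a ratio that no scaling between libraries can alter. It was 2.68 ± 0.148 in fkh1Δ dbf4-Zn* libraries, against 1.00 ± 0.0523 in dbf4-Zn* libraries (SD, n = 4 each). The ratio was 4.38 ± 0.0287 in fkh1Δ and 1.40 ± 0.0890 in WT (SD, n = 2 each). The Fkh1-dependent list was chosen by its fall in fkh1Δ against WT, so the choice favours a higher ratio in fkh1Δ than in WT. Among the 30 highest origins of each fkh1Δ dbf4-Zn* library, 10 or 11 were CEN-proximal and 0 Fkh1-dependent, whereas each dbf4-Zn* library had 5 CEN-proximal and 6 Fkh1-dependent origins there. Of the 25 origins among the 30 highest of all 4 fkh1Δ dbf4-Zn* libraries, 68.0% were also among the 30 highest of all 4 dbf4-Zn* libraries, which were 63.0% of the 27 that those libraries shared.

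The comparison was repeated over the whole genome, origins included. It was divided into 11989 tiles of 1 kb that passed the minimum count, of which 1330 (11.1%) were lower and 2510 (20.9%) higher. The median over all tiles was 0.31 on the log2 scale. With TMM factors 1735 were lower and 1503 higher. Neighbouring tiles are not independent, so the tile counts given here are not counts of separate observations. Within 25 kb of a centromere 563 of 799 tiles were higher and 55 lower, with a median of 0.92. Within 20 kb of an end 285 of 613 were higher and 19 lower, with a median of 0.65. In the rest of the genome 1662 of 10577 were higher and 1256 lower, with a median of 0.26. The next counts take only tiles 5 kb or more from a called origin peak. Within 25 kb of a centromere 319 of 439 were higher and 11 lower (median 1.05). Within 20 kb of an end 209 of 534 were higher and 19 lower (median 0.63). Elsewhere 1428 of 9462 were higher and 700 lower (median 0.30).

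Of the 10 tiles with the largest rises at least 5 kb from a called origin peak, 9 lay within 20 kb of a centromere. The largest was at 256 kb of chromosome XIII in GIS4, 11.9 kb from the centromere, with 4.02, 3.83, 3.54 and 3.49 in fkh1Δ dbf4-Zn* libraries and 0.729, 0.570, 0.482 and 0.619 in dbf4-Zn* libraries (log2 fold change 2.64 ± 0.17, adjusted p = 4.82e-16 by edgeR). The neighbouring tiles with YAP1, ERG6 and MIN4 and the tiles with BET1 and CFD1 on chromosome IX, APL1 on X and BUD3 on III made up the rest of the 9. The exception, at 601 kb of chromosome XV in THI80, lies 275 kb from the centromere and 112 kb from the nearest called peak. Origins that gave no called peak may lie nearer. The THI80 tile held 1.20, 0.838, 0.979 and 0.773 in fkh1Δ dbf4-Zn* libraries and 0.110, 0.216, 0.147 and 0.322 in dbf4-Zn* libraries.

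Origin windows together held a smaller share of all counts after FKH1 deletion. The 163 windows held 3.73 ± 0.134% of all counts in fkh1Δ dbf4-Zn* libraries, against 4.21 ± 0.136% in dbf4-Zn* libraries. The number of origins at 5 times the mean or more was 65 ± 0.816 in fkh1Δ dbf4-Zn* libraries, against 69.5 ± 1.29 in dbf4-Zn* libraries (SD, n = 4 each). The 30 highest origins held 46.3 ± 0.831% of the counts in origin windows in fkh1Δ dbf4-Zn* libraries, against 49.0 ± 0.715% in dbf4-Zn* libraries (SD, n = 4 each), but with the 15 highest the difference changes sign, with 27.6% to 28.8% in fkh1Δ dbf4-Zn* libraries, against 26.7% to 27.7% in dbf4-Zn* libraries. Peaks were 7500 ± 899 bp wide in fkh1Δ dbf4-Zn* libraries, against 8838 ± 502 bp in dbf4-Zn* libraries (SD, n = 4 each). Widths were 8200 and 8350 bp in fkh1Δ dbf4-Zn*1 and 6650 and 6800 bp in fkh1Δ dbf4-Zn*2. In dbf4-Zn* libraries they were 8400 to 9500 bp, so fkh1Δ dbf4-Zn*1 lay only just below them. Without smoothing the difference between the group means changes sign as well.

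The rDNA repeat gained most in relative terms among these single values. Its IP level over its Total level was 0.765, 0.804, 0.839 and 0.837 in fkh1Δ dbf4-Zn* replicates, against 0.390, 0.418, 0.478 and 0.467 in dbf4-Zn* replicates. With intact DBF4 the ratio was 0.978 and 1.01 in fkh1Δ and 0.945 and 0.877 in WT. For each of the 5 single values the groups of 4 did not overlap, which gives p = 0.0286 in a two-sided exact permutation test, the smallest value that 4 against 4 libraries can give, and 0.0286 after adjustment over the 5.

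Total DNA is sequenced without selection, and its level rises where DNA has been copied. It changed in the same lists by smaller amounts. At 7 origins (4.29%) Total counts were lower and at 36 (22.1%) higher in fkh1Δ dbf4-Zn* (edgeR, adjusted p under 0.05), and under TMM scaling 22 were lower and 29 higher. Without the second dbf4-Zn*1 replicate 4 were lower. The median over all origins was 0.11 on the log2 scale. Among CEN-proximal origins 15 of 32 were higher and 0 lower, and their median Total level was 1.26 ± 0.0397 in fkh1Δ dbf4-Zn* and 1.06 ± 0.0290 in dbf4-Zn* libraries (SD, n = 4 each). Of the 7 origins that were lower in Total, 6 were Fkh1-dependent, where 1 of 46 was higher. At XV-1053 the mean Total level was 0.966 in fkh1Δ dbf4-Zn*, against 1.61 in dbf4-Zn*, while XI-56 had 0.977 in fkh1Δ dbf4-Zn*, against 1.41 in dbf4-Zn*. Across the 163 origins the log2 fold changes in IP and in Total had a Pearson correlation of 0.67, where both kinds of library came from the same cells. No whole chromosome was gained or lost, since the median level of each chromosome in the 8 Total libraries was 0.957 to 1.05 times that of the genome. This does not cover single sites. Each of the 4 fkh1Δ dbf4-Zn* Total libraries had 1 origin, of the remaining list, at 5 times the mean or more, and each dbf4-Zn* Total library had 0. What such local Total levels contribute to the IP changes was not tested.

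The effect of the deletion was then compared with its effect in cells with intact DBF4, with 4 libraries of fkh1Δ dbf4-Zn* and 4 of dbf4-Zn* against 2 of fkh1Δ and 2 of WT. The 2 effects differed at 96 origins, with a higher log2 fold change in the dbf4-Zn* background at 85 (52.1%) and a lower one at 11 (6.75%) by the interaction term in edgeR. Under TMM scaling the counts were 63 and 15, and without the second WT replicate 7 were lower. Among the 106 origins (65.0%) that were lower in fkh1Δ than in WT, 59 were also lower in fkh1Δ dbf4-Zn* than in dbf4-Zn*, 26 were not called and 21 were higher.

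CEN-proximal origins had a median log2 fold change of 0.69 in the dbf4-Zn* background and -0.05 in the DBF4 background. Over all origins these medians were 0.02 and -0.61. The median interaction of CEN-proximal origins was 0.67, beside 0.62 over all origins, so it is not particular to this list. The difference between backgrounds passed the test at 18 of 32 CEN-proximal origins, all higher in the dbf4-Zn* background, a share close to that of all origins. At the Fkh1-dependent origins it passed at 25 of 46, with 23 higher and 2 lower in the dbf4-Zn* background. Their median interaction was 0.63, beside 0.62 over all origins. These origins were chosen by a low value in fkh1Δ against WT, which the interaction subtracts. The choice of the list thus favours higher interactions, and this split cannot be read as a result about the list. At XIV-636 the interaction was 2.85 ± 0.29 on the log2 scale, at XII-157 2.22 ± 0.26 and at X-442 2.14 ± 0.33. All 14 end origins passed it too. Their median was 0.79 in the dbf4-Zn* background and -0.74 in the DBF4 background, beside 0.02 and -0.61 over all origins. For the largest fall, XI-56, the effect was -3.98 in the dbf4-Zn* background and -3.86 in the DBF4 background, a difference of -0.12 ± 0.24 that missed the threshold (adjusted p = 0.688, edgeR). XV-1053 was the Fkh1-dependent origin with the strongest shift towards a lower value in the dbf4-Zn* background, at -0.98 ± 0.23. XIV-411 rose in both backgrounds, by 2.15 with dbf4-Zn* and by 3.59 with DBF4.

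The 2 zinc-finger alleles gave similar values. Each allele taken alone called 56 origins lower and 55 higher for fkh1Δ dbf4-Zn*1 against dbf4-Zn*1, and 53 lower and 54 higher for fkh1Δ dbf4-Zn*2 against dbf4-Zn*2. The direction of the log2 fold change was shared at 153 of 163 origins, and the Pearson correlation of these 2 sets of values, which have no library in common, was 0.97 across origins.

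A difference between the alleles passed the test at 1 origin of 163 (0.613%), and 6 had an unadjusted p under 0.05 (edgeR). This was III-225, between TAH1, which encodes a co-chaperone of Hsp90, and TVS1 (bases 225101 to 225600 of chromosome III), which falls outside the naming rule and was picked out after its values were seen. Its level was 9.46 and 8.87 in fkh1Δ dbf4-Zn*1 and 2.56 and 2.86 in fkh1Δ dbf4-Zn*2, against 14.3 to 16.5 in the 4 dbf4-Zn* libraries. The difference between the 2 effects was 1.86 ± 0.23 on the log2 scale (adjusted p = 4.22e-07, edgeR). Total levels there were 1.33 and 1.45 in fkh1Δ dbf4-Zn*1 and 1.00 and 0.849 in fkh1Δ dbf4-Zn*2, against 1.29 to 1.47 in the 4 dbf4-Zn* libraries. As each allele with fkh1Δ is 1 strain, an effect of the allele cannot be told apart from a change in that strain.

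Depth sets the precision of these values. IP totals over all bins were 5512524 to 12957824 counts in fkh1Δ dbf4-Zn* and 1501580 to 6179788 in dbf4-Zn* libraries, and the median origin window held 870 to 2166 counts in fkh1Δ dbf4-Zn* and 251 to 1142 in dbf4-Zn* libraries. A read is counted in each bin that it overlaps, so these totals exceed the number of reads. Low levels in dbf4-Zn*, such as those at XIV-636, IV-213 and XIV-411, therefore rest on few counts, which limits their precision.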

How the data were processed

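Each deposited QBU file gives the count of reads, unscaled, in 50-bp bins of 16 chromosomes. Per the labels, reads were processed with Bowtie2, SAMtools and bedtools, and versions, the genome build and the treatment of reads with several placements are not given in the sources used here. Coordinates are those of the files, and genes were named by position from the RefSeq R64 table. ChIP-seq files were not used. The members and lists were chosen with earlier results of these data known.

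IP profiles were divided by their means and averaged over 10 strains. After 1-kb median smoothing, as in the study but settled after the profiles were seen, 172 peaks were taken as bins that reached 2 times the mean and had no higher bin within 5 kb on either side. Of these, 3 at the rDNA and 6 without a full window before an end were left out. Counts in 500-bp windows of the 20 IP libraries were fitted with edgeR 4.0.16 (quasi-likelihood, strain as factor, all bins as library size) in R 4.3.3, and the 20 Total libraries likewise. Tiles with a mean count under 10 were dropped. Exact permutation tests were two-sided. Tests were run on simulated counts before use. DESeq2 1.42.0, TMM, other windows, other peaks, a replicate block and leaving out each library were alternatives. The named origins are the 10 lowest and 10 highest fold changes among called origins without overlap, the 4 peaks nearest to ARS names on chromosome XV and both origins flanking the centromere of chromosome X. A few other origins are named where a small count called for it, after their values were seen. The list by ctf19Δ was added after seeing the data. Replicate variance was 1.47 to 1.57 times counting noise in the 4 IP pairs, so no library was counted once for a duplicate. Other steps ran in Python 3.11.15 with pandas 2.3.3, numpy 2.4.6, scipy 1.17.1 and, for plots, matplotlib 3.10.9.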

Additional observations from a re-analysis of the deposited data

Results flagged for a closer look

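The effect of FKH1 deletion differed between dbf4-Zn* and DBF4 cells at 85 origins with a higher value in the dbf4-Zn* background and at 11 with a lower one, by the interaction term in edgeR. Among the origins named above, the interaction on the log2 scale was 2.85 at XIV-636, 2.22 at XII-157, 2.14 at X-442, 1.84 at VI-136, 1.83 at XVI-563, 1.71 at IX-342, 1.42 at IX-357, 1.39 at VII-204 and 0.85 at IV-213. It was -1.43 at XIV-411, -1.13 at XVI-438, -0.98 at XV-1053, -0.93 at II-209 and -0.71 at XIII-898. These strains differ also in the site of BrdU-Inc and in the marker of the deletion, which cannot be told apart from the dbf4 alleles.

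The effect differed between the dbf4-Zn*1 and dbf4-Zn*2 alleles at III-225, by 1.86 on the log2 scale.

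In 2 of 56 groups of 4 libraries 1 library stood apart from its group, where chance gives about 1 in 20. At IV-213 the first dbf4-Zn*1 replicate was at 0.114 times the mean, with the other dbf4-Zn* libraries at 0.219 to 0.231. At XV-278 the second fkh1Δ dbf4-Zn*1 replicate was at 8.82, with the other fkh1Δ dbf4-Zn* libraries at 9.16 to 9.22.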

How the results depend on the processing

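Scaling had the most effect. Lower origins numbered 40 with TMM and 0 with library sizes from Total, where higher ones also numbered 0 and 10 origins had an unadjusted p under 0.05 in edgeR. Without smoothing 284 origins were called, of which 123 were lower. TMM gave 22 lower origins in Total and 1503 higher tiles. Median log2 fold changes under TMM, DESeq2, Total library sizes and IP divided by Total were 1.12, 0.84, 1.02 and 0.32 for CEN-proximal, -0.66, -0.95, -0.73 and -0.96 for Fkh1-dependent, 0.32, 0.036, 0.25 and -0.21 for Fkh2-backed, 0.70, 0.42, 0.58 and 0.17 for remaining, 1.21, 0.94, 1.08 and 0.51 for end origins, and 0.45, 0.16, 0.37 and -0.16 for all origins. The Fkh1-dependent median was -0.49 at a limit of -0.5 (91 origins) and -0.50 when defined from fkh1Δ fkh2-dsm (82 origins). Without smoothing peak width differed by 775 bp, and the 15 highest origins differed by 1.25 percentage points, both with the higher value in fkh1Δ dbf4-Zn*. X-417 was at 0.15 with TMM and 0.087 with Total library sizes.

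Leaving out each library in turn gave 55 to 61 lower and 59 to 64 higher origins, 7 to 11 lower and 68 to 87 higher interactions (7 without the second WT replicate), 4 to 8 lower and 29 to 34 higher origins in Total (4 without the second dbf4-Zn*1 replicate), and 1176 to 1234 lower and 1830 to 2357 higher tiles. The medians were 0.67 to 0.71 (CEN-proximal), -1.12 to -1.0 (Fkh1-dependent), -0.14 to -0.07 (Fkh2-backed), 0.24 to 0.32 (remaining), 0.77 to 0.86 (end origins) and -0.0072 to 0.066 (all origins). The single values differed by -3.0 to -2.37 percentage points (30 highest origins), -0.542 to -0.421 percentage points (origin windows), -5 to -4 origins, -1621 to -1054 bp and 0.357 to 0.389 (rDNA), where 3 against 4 libraries allow no p below 0.0571 in an exact permutation test. Replicate numbers do not pair the samples, since deviations of same-numbered libraries correlated between -0.12 and 0.10. With the replicate block 60 origins were lower and 63 higher, and the interaction counts were 10 and 84. The cause of these changes was not tested.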
